A study of Zea mays with 12 samples.

Results

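Late S domains are the stretches of the maize genome in which newly made DNA was enriched late in S phase, alone or together with an earlier stage. They were taken from a deposited segmentation of the genome by collecting every segment whose class contains LS and joining those that touch. The classes were LS, the mixed class MSLS (mid and late S) and, rarely, ESLS and ESMSLS. Of 20613 segments 5620 met this rule, and they formed 2101 domains. The domains were thus chosen by the measured timing classes, so their number, length, spacing, position and make-up are descriptions without a test. Late S, mid S, early S and G1 nuclei, with 3 biological replicates each and 12 libraries in all, were sorted from the outermost 1 mm of root tips; seedlings were 3 days old and grown at 28 C. All carried a 20 min pulse of 25 µM of the thymidine analogue EdU followed by 100 µM thymidine, and all shared the B73 inbred genotype. DNA with EdU was immunoprecipitated from late S nuclei and the other S-phase groups, while G1 DNA skipped that step and serves as the copy number reference. The available values were a single categorical track on a 10 kb grid, with no value per library, so neither the depth nor the spread between late S replicates can be given. The SDs given are between the 10 chromosomes of 1 genome, so they do not measure variation between plants.

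In plant and animal genomes, replication usually proceeds from open, gene-rich chromatin early in S phase to condensed, repeat-rich heterochromatin late in S phase. Cells in G1 have not begun to replicate, so their DNA gives the even copy number against which enrichment in S phase is read. The large genome of maize consists mostly of transposable elements, and its gene-poor interior around the centromeres is rich in heterochromatin. A mixed class can arise where cells differ in timing or where a region replicates between the sorted stages, and these cannot be told apart in a sorted population.

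Late S domains covered a large part of the genome and varied widely in length. The 2101 domains added up to 628.3 Mb, or 29.99% of the 2095.3 Mb with a class. The shortest measured 10 kb, the quartiles lay at 80 kb, 160 kb and 330 kb, and the longest reached 7.09 Mb. Sequence was concentrated in few of them: the 265 longest domains, 12.6% of all and each at least 560 kb, held 50% of it. Domains longer than 1 Mb numbered 116 and held 32.5%, whereas the 301 domains of up to 50 kb held 1.59%.

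LS cores made up most of this sequence, and the rest was mixed. LS segments took 429.4 Mb, or 68.3% of domain sequence, and MSLS 198.7 Mb, or 31.6%. A core, meaning at least 1 LS segment, was present in 1375 domains, and the other 726 consisted of mixed classes alone. The domains with a core had a median length of 240 kb and held 90.9% of domain sequence. Those without a core had a median of 70 kb and a maximum of 360 kb, and 724 of them were a single MSLS segment. The core share rose with length, at 9.59% of the sequence of domains up to 50 kb, 12.6% between 50 and 100 kb, 39.4% between 100 and 200 kb, 63.8% between 200 and 500 kb, 79.9% between 500 kb and 1 Mb and 88.0% beyond. Every domain longer than 500 kb had a core.

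**Figure D1:**
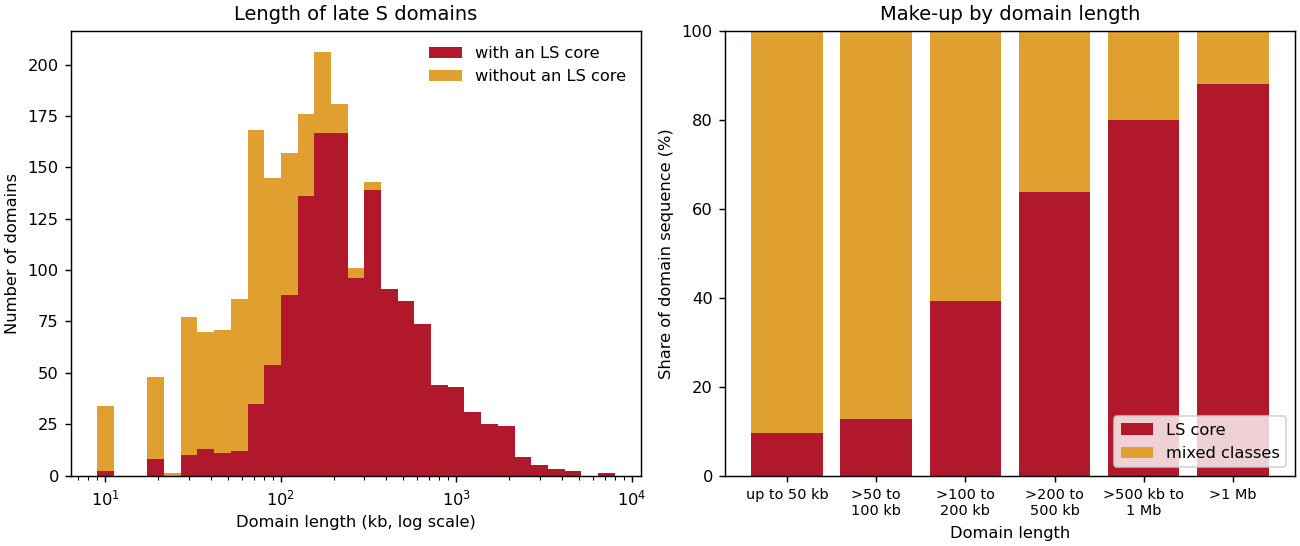
Left, number of late S domains by length in kb on a log axis, stacked by whether the domain holds an LS core (1375) or not (726). Right, share of domain sequence in LS cores and in mixed classes by domain length; the LS part is 9.59% in domains up to 50 kb and 88.0% in those longer than 1 Mb.

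The commonest arrangement was 1 core between a pair of mixed edges. This MSLS, LS, MSLS order described 790 domains, 57.5% of those with a core. An MSLS segment stood at both ends of 1081 domains, at 1 end of 218 and at neither end of 76. The rare classes ESLS and ESMSLS, which are not counted as edges, stood at an end of 5 domains with a core. The outer edges were short, with a median of 30 kb and quartiles of 30 kb and 50 kb, over 2380 edges. In the 1081 domains with an MSLS edge at both ends, the edge at the lower coordinate averaged 41.8 kb and the one at the higher coordinate 43.2 kb. The higher one was longer in 420 domains, the lower one in 414, and 247 had equal edges. Edges facing the nearer chromosome end averaged 43.0 kb and those facing the middle 42.1 kb. Within a domain the edges were nearly unrelated in length, with a Spearman rho of 0.0924 across these 1081 domains. More LS sequence in a domain, summed over its cores, went with a slightly shorter mean edge, with a rho of -0.238. Both are descriptions on a 10 kb grid and carry no test.

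Long domains were often chains of cores. More than 1 core was found in 374 domains, 27.2% of those with a core, and these 374 held 48.4% of all domain sequence. A single core occurred in 1001 domains with a median length of 190 kb. The 255 domains with 2 cores had a median of 470 kb, the 74 with 3 cores a median of 885 kb, and the 3 domains with 7 cores, the most seen, a median of 3260 kb. The MSLS segments between cores of one domain were longer than the outer edges, with a median of 60 kb over 566 such segments.

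Most domains gave way directly to mid S. Of 4202 domain ends, 90.8% touched an MS segment and 8.69% touched sequence without a class. Early classes were next to a domain at 11 ends, 7 of them ES and 4 ESMS. Where a domain ended in LS without an MSLS edge, the neighbour was nearly always unclassified: this held for 325 of 365 such ends, with 31 at MS, 1 at ES and 8 at the outermost segment of a chromosome. MSLS ends, in contrast, met MS in 98.8% of cases and unclassified sequence in 1.04%. The part of the unclassified sequence in the missing edges was not tested.

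Neighbouring domains were separated by 200 kb at the median. Quartiles of the 2091 stretches between them were 100 kb and 460 kb, and the mean of 690.0 kb was set by a long tail. The 249 stretches of at least 1 Mb held 68.6% of all sequence between domains. The replication class reached in between followed the spacing. Of the stretches longer than 50 and up to 100 kb, 291 of 319 held MS with or without unclassified sequence and only 1 reached ES. Between 200 and 500 kb, 53.7% of 549 reached ES, and between 500 kb and 1 Mb 90.8% of 239 did. In all, 863 stretches (41.3%) stayed in MS, 275 (13.2%) reached ESMS and 843 (40.3%) reached ES. The remaining 110 (5.26%) were unclassified throughout, so the domains on either side were kept apart only by sequence without a class. The rule of touching separates domains that lie 10 kb apart: there were 24 such pairs, divided by 13 unclassified windows, 10 MS windows and 1 of an earlier class.

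**Figure D2:**
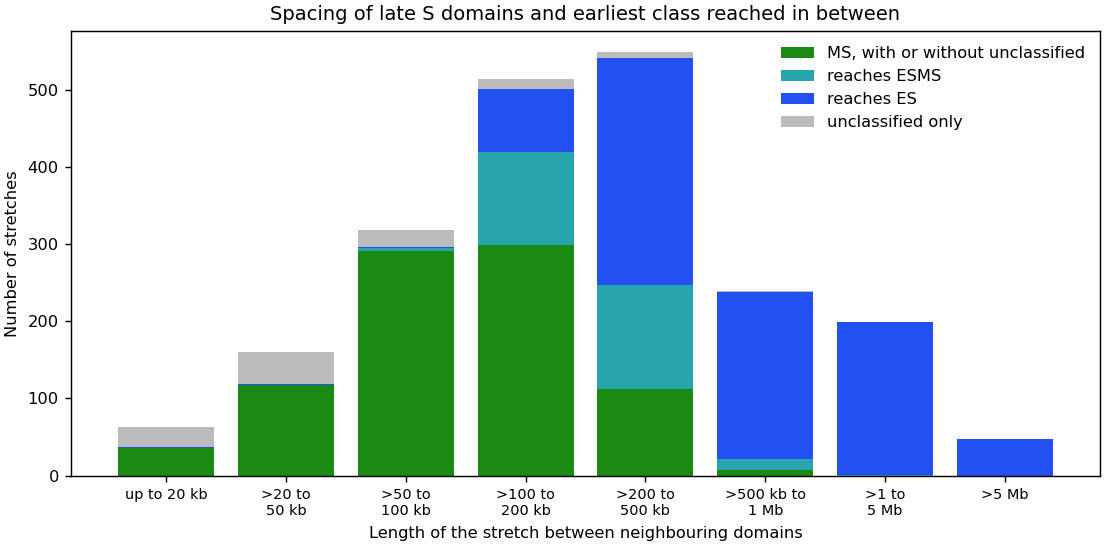
Number of stretches between neighbouring late S domains by length, coloured by the earliest class reached inside the stretch. Stretches of up to 100 kb are mostly MS, and of those between 500 kb and 1 Mb 90.8% reach ES.

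The longest stretches without any late S domain lay on the arms. They ran from 194150001 to 237990000 on chromosome 3 (43.8 Mb, 66.1% ES, 1091 protein-coding genes), from 142800001 to 180140000 on chromosome 6 (37.3 Mb, 70.2% ES, 1127 genes) and from 196510001 to 232480000 on chromosome 2 (36.0 Mb, 58.6% ES, 949 genes). Next came 13360001 to 40830000 on chromosome 1 (27.5 Mb, 579 genes) and 750001 to 25860000 on chromosome 2 (25.1 Mb, 843 genes). The longest stretch on chromosome 9 was 6.01 Mb, the shortest such maximum of any chromosome. Beyond the last domain, a further 21.4 Mb of chromosome 9 and 16.9 Mb of chromosome 1 held none.

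Domains were more frequent, longer and more often cored in chromosome interiors. Their share was 11.9% ± 7.71 over the outer 20% of chromosome length at each end and 42.7% ± 6.58 over the middle 60%. The difference of -30.8 percentage points ± 10.4 was negative on all 10 chromosomes (SD, n = 10). It was smallest on chromosome 6, at -8.80 points. The outer parts held 0.550 domains per Mb ± 0.272 and the middle 1.30 ± 0.134. Of the 452 domains centred in the outer parts 55.5% had a core and the median length was 110 kb. Of the 1649 in the middle 68.2% had a core and the median was 170 kb. Chromosome 6 ran the other way in cores, with 76.5% in its outer parts and 61.3% in its middle. Of its 51 outer domains, 15 held ribosomal RNA genes, described below, and each of these had a core. Their effect on the 76.5% was not tested. Spacing changed in the opposite sense, with chromosome medians of 568 kb ± 396 between domains in the outer parts and 194 kb ± 25.6 in the middle.

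**Figure D3:**
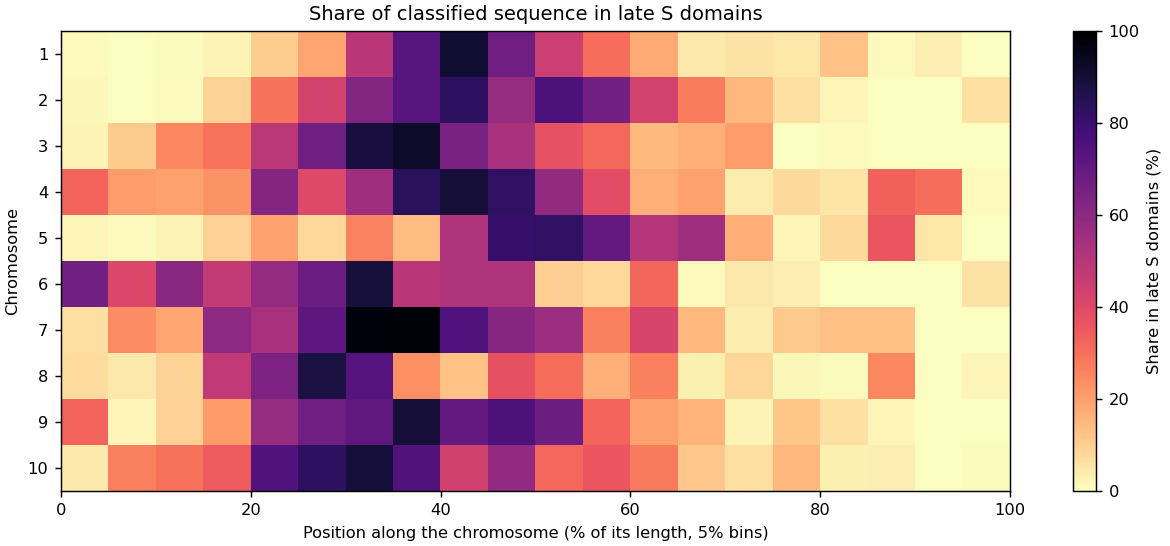
Share of classified sequence in late S domains in 5% bins along each of the 10 chromosomes, from 0% at the lowest coordinate to 100% at the highest. The mean over chromosomes peaks at 70.1% in the bin from 30% to 35%; on chromosome 6 the first bin reaches 66.4%.

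In the densest belt of some chromosomes, but not of all, domains nearly merged. The 20 Mb window with the highest domain share was located on each chromosome, in steps of 1 Mb, as a description. Every chromosome has such a window by construction. Its share ranged from 77.8% on chromosome 6 to 98.3% on chromosome 7, and its centre lay between 28.0% and 50.4% of the way along the chromosome. The belt of chromosome 7, from 54000001 to 74000000, was 92.2% LS core and held 53 protein-coding genes, or 2.65 per Mb. The belt of chromosome 3, from 73000001 to 93000000, reached 93.0% with 64 genes, and that of chromosome 1, from 122000001 to 142000000, reached 92.8% with 75 genes. The belt of chromosome 6, from 44000001 to 64000000, was 63.5% LS core, was touched by 27 separate domains and held 128 genes. Over the classified genome the density was 15.8 genes per Mb.

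The tips themselves were often late. The outermost segment belonged to a late S domain at 12 of the 20 chromosome ends, although domains took only 1.56% ± 2.35 of the last 5% of the chromosomes. Most of these terminal domains were short, with a median of 156 kb and 3 of them under 30 kb. At the start of chromosomes 4, 5 and 8 the first 160 kb, 180 kb and 240 kb were late, with LS at the outermost window. At the end of chromosomes 2, 3 and 8 domains of 205 kb, 27.8 kb and 151 kb also ended in LS. The terminal domains of chromosomes 6 and 9, at their starts, measured 5.16 Mb and 1.86 Mb and lay behind 240000 and 90000 unclassified bases. The first 5% of chromosomes 6, 9 and 4 was accordingly high, at 66.4%, 32.8% and 32.4%, while the other 7 chromosomes had between 0.928% and 7.05% there.

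Chromosomes differed in how much of them was late. The domain share averaged 30.4% ± 4.88 (SD, n = 10), from 22.0% on chromosome 1 and 24.1% on chromosome 8 to 36.0% on chromosome 4 and 37.3% on chromosome 7. Number and length contributed differently: chromosome 10 had the most domains per Mb, 1.25, with a median length of 135 kb, and chromosome 5 had 0.850 per Mb with the longest median, 190 kb. Chromosome 6 was the richest in cores, with 74.5% of its domain sequence in LS, and chromosome 8 the poorest, with 63.6%.

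Of the 10 longest domains, 4 lay on chromosome 7. The longest, from 60420001 to 67510000 (7.09 Mb), held 2 cores that made up 98.3% of it and 12 protein-coding genes. Together with those from 67640001 to 70730000 (3.09 Mb), 71100001 to 74400000 (3.30 Mb) and 53160001 to 56420000 (3.26 Mb), it lay in or beside the belt described above. The second longest started at 240001 and ended at 5400000 on chromosome 6, the chromosome that carries the nucleolus organizer, and held 2 genes in 5.16 Mb. A domain from 113300001 to 117480000 on chromosome 4 (4.18 Mb) had 7 cores and 13 genes. Next in length came 43740001 to 47750000 on chromosome 10 (4.01 Mb, 4 cores, 10 genes) and 131250001 to 135050000 on chromosome 1 (3.80 Mb, 1 core, 8 genes). Among the protein-coding genes of the 10 longest domains only xyl1 (chromosome 1) and CADR16 (chromosome 7) had a given name.

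Gene content dropped in steps from the surroundings into the core. RefSeq genes (assembly Zm-B73-REFERENCE-NAM-5.0) were placed by their midpoint; they played no part in choosing the domains. LS cores held 3.69 protein-coding genes per Mb ± 0.593, the outer MSLS edges of the same domains 6.30 ± 0.692, and the 100 kb just outside them 13.8 ± 0.752 (SD, n = 10). Over all classified sequence outside the domains the density was 20.6 ± 0.954. Core minus edge was -2.61 genes per Mb ± 1.10, lower in the core on 10 of 10 chromosomes, with values between -4.05 and -0.557. Edge minus flank was -7.55 ± 0.868, lower in the edge on 10 of 10. An exact two-sided sign-flip permutation test over the chromosomes gave p = 0.00195 for both, the smallest that 1024 sign patterns allow, and 0.00234 after Benjamini-Hochberg adjustment over 6 tests.

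**Figure D4:**
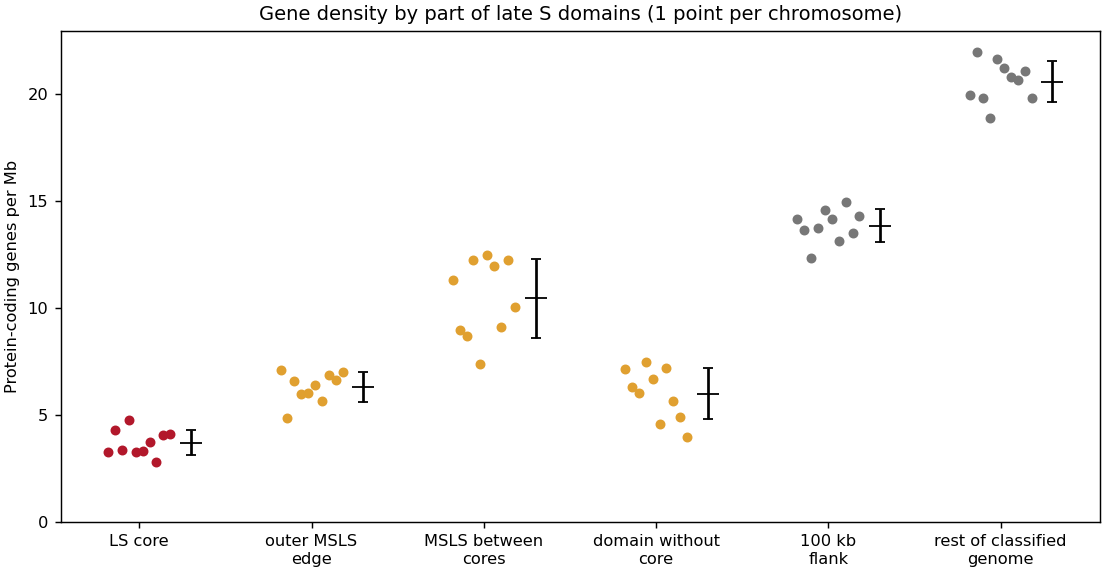
Protein-coding genes per Mb in the parts of late S domains, in the 100 kb outside domains with a core and in the rest of the classified genome. Each point is 1 chromosome, and the bar beside them is the mean ± SD over 10 chromosomes, from 3.69 ± 0.593 in LS cores to 20.6 ± 0.954 in the rest.

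Mixed sequence inside a domain was not all alike. MSLS segments between cores held 10.4 genes per Mb ± 1.83, more than the outer edges on 10 of 10 chromosomes, by 4.13 ± 1.88 (SD, n = 10). The difference from the cores was 6.75 ± 1.71 and that from the 100 kb flank -3.41 ± 2.08 genes per Mb, each with the same sign on 10 of 10 chromosomes. A protein-coding gene lay in 53.4% of the 566 segments between cores and in 20.1% of the 2380 outer edges, which were shorter. These comparisons were chosen after the values were seen and carry no test. Domains with a core, taken whole, held 4.63 genes per Mb ± 0.534 and domains without one 5.99 ± 1.19, a difference of -1.35 ± 1.31 (exact sign-flip permutation test, p = 0.0137, adjusted p = 0.0137). It was negative on 8 chromosomes and positive on chromosomes 9 and 10. Domains without a core hold no LS sequence, and their density was near that of the outer MSLS edges. That difference, given without a test, was -0.316 ± 1.61 genes per Mb, with domains without a core higher on 5 of 10 chromosomes.

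Most of the change in gene density took place outside the border. In the first 20 kb inside a domain with a core there were 5.75 genes per Mb ± 1.42, and at 20 to 50 kb, 50 to 100 kb, 100 to 200 kb and 200 to 500 kb inside between 4.54 and 4.84. Deeper than 500 kb the density was 3.59 ± 0.883. Outside, it was 8.92 ± 1.94 within 20 kb, 13.1 ± 1.21 at 20 to 50 kb and 17.4 ± 1.55 at 50 to 100 kb, then 15.4 ± 1.18 at 100 to 200 kb and 15.1 ± 1.39 at 200 to 300 kb (SD, n = 10). The first 10 kb outside was 99.7% MS, and at 80 to 90 kb outside MS had a share of 55.6%. Windows farther out come only from the longer stretches between domains.

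**Figure D5:**
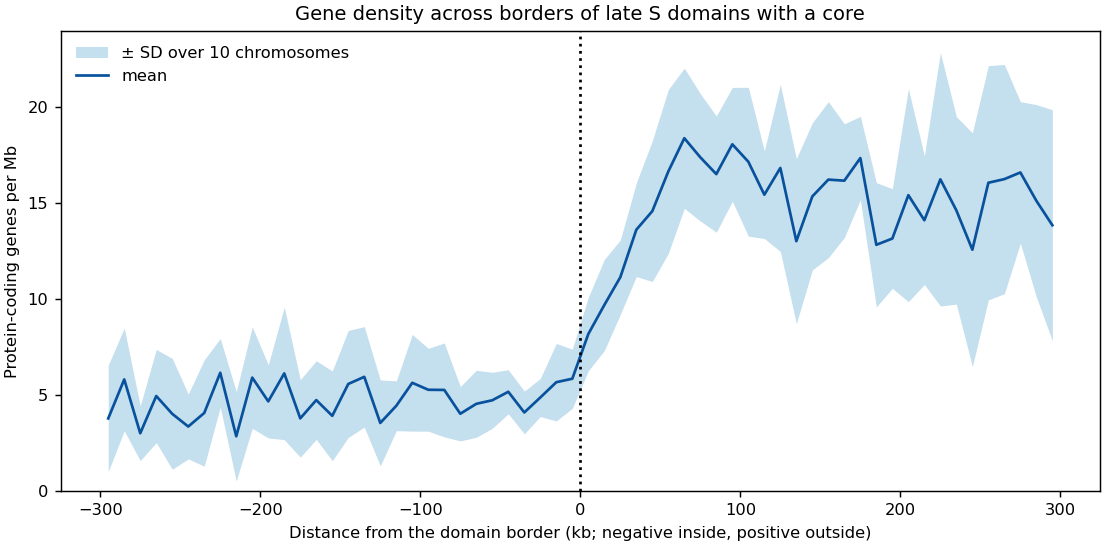
Protein-coding genes per Mb by distance in kb from the border of late S domains with an LS core, in windows of 10 kb, with the mean (line) and SD (band) over 10 chromosomes. The first 20 kb inside holds 5.75 and the band from 50 to 100 kb outside holds 17.4 genes per Mb.

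Gene density was highest in the shortest domains and lowest in the longest. It was 6.41 genes per Mb in domains up to 50 kb, between 5.07 and 5.26 in the classes from 50 kb to 1 Mb, and 3.94 beyond 1 Mb. In all, 985 domains (46.9%) held no protein-coding gene; their median length was 100 kb. No annotated gene of any type was found in 764 domains. The longest without a protein-coding gene measured 940 kb, on chromosome 1 from 129240001 to 130180000 and on chromosome 5 from 199180001 to 200120000. A single gene was found in 475 domains, and 10 or more in 39.

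The genes that were present were shorter, and more of them were pseudogenes or noncoding. Median protein-coding gene length per chromosome was 2092.5 bp ± 176 in late S domains and 3164 bp ± 63.2 in the rest of the classified genome, a difference of -1071 bp ± 204, shorter on 10 of 10 chromosomes. Over the genome the median was 1868 bp in cores, 2367 bp in outer edges, 2846 bp in segments between cores and 1787 bp in domains without a core. Pseudogenes made up 17.9% ± 1.42 of annotated genes in the domains and 9.90% ± 0.548 in the rest, a difference of 7.95 percentage points ± 1.26. Long noncoding RNA genes made up 20.1% ± 2.81 in the domains and 10.3% ± 0.920 in the rest, a difference of 9.73 points ± 3.30. The pseudogene and long noncoding RNA shares were each higher in the domains on all 10 chromosomes. Both differences were smallest on chromosome 6, at 5.69 points for pseudogenes and 1.96 points for long noncoding RNA genes. The 608 annotated genes in its domains include 95 pseudogenes, 85 long noncoding RNA genes and 173 ribosomal RNA genes. The ribosomal RNA genes enter only the denominator, so they lower both shares in the domains of chromosome 6. Shares without them were not tested. The exact sign-flip permutation test gave an adjusted p = 0.00234 for each of these 3 differences (SDs over n = 10). Per Mb, however, both types were also sparser there: pseudogenes stood at 1.53 ± 0.224 in the domains and 2.71 ± 0.1998 in the rest, and long noncoding RNA genes at 1.71 ± 0.224 in the domains and 2.84 ± 0.296 in the rest.

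The domains with most genes were long chains of cores, with 1 exception. Their gene counts were 20 on chromosome 2 from 145350001 to 147270000 (1.92 Mb, 5 cores), 19 on chromosome 7 from 31070001 to 32650000 (1.58 Mb, 4 cores), 19 on chromosome 6 from 110470001 to 112370000 (1900 kb, 3 cores) and 19 on chromosome 6 from 38000001 to 40230000 (2.23 Mb, 4 cores). The exception was a single core with short edges on chromosome 4, from 217690001 to 218430000, with 18 genes in 740 kb, or 24.3 per Mb. The chromosome 2 domain held ns1, the narrow sheath1 homeobox gene of leaf margin development, also known as WOX3A, and 1 of the 2 entries that carry the name rbcS. The second chromosome 6 domain held GPRP and the genes RS2Z35 and RS2Z37B.

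Ribosomal RNA genes were clustered in late S domains of 1 chromosome. All 173 that carried a class on chromosome 6, the chromosome of the nucleolus organizer, lay in LS cores, and none of the 37 with a class on chromosome 2 lay in a domain. The 173 fell in 15 domains between 17400001 and 25370000, of which 14 were a single LS segment with no mixed edge. Of the 16 stretches between neighbouring domains in that interval 14 were unclassified throughout. The domain from 23060001 to 23490000 held 53 of the 173 and no protein-coding gene, and that from 23580001 to 25370000, which began in LS and ended in MSLS, held 27. Only 173 of the 670 annotated on chromosome 6 and 37 of the 209 on chromosome 2 had a class at all. They are tandem copies whose reads can map to many places, and the part of that in their class was not tested. Ribosomal RNA genes were counted as 1 type, so whether chromosomes 6 and 2 carry the same kind was not examined. This comparison was chosen after the values were seen.

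Of 33146 classified protein-coding genes 3014 (9.09%) lay in a late S domain, 4.86% in an LS core and 4.23% in mixed sequence. Genes with a given name were at 7.07% of 2644. In 6 of 17 name lists no classified member was in a domain. They were benzoxazinoid genes (4), cytosolic ribosomal proteins (37), core histones (7), DNA replication machinery (11), cyclins and cyclin-dependent kinase genes (16), and DNA methylation and small RNA silencing genes (16). These 6 are grouped only because they had none. Several are too small for an absence to be told from the 9.09% of all genes. These counts carry no test, and the lists were chosen with earlier results of these data known.

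Terpene synthases, which make volatile and defensive terpenes, had 4 of 6 members in late S domains, all on chromosome 10. That is 66.7%, beside 9.09% of all genes, in a list of 6 and without a test. tps6 and tps11 shared a domain of 540 kb, from 56530001 to 57070000, with tps11 in a core and tps6 in an outer edge. tps23, which makes the herbivore-induced volatile caryophyllene, lay in a core of a 550 kb domain and tps10 in a core of an 830 kb domain. The table gives tps6 and tps11 the same older gene model as a synonym.

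Zeins, the storage proteins of the kernel, had 6 of 28 members in domains (21.4%, beside 9.09% of all genes) and none in a core. z1D_2 and z1D_4 lay in separate domains of 80 kb each and z1C1_7 and z1C1_8 together in one of 40 kb, none with a core, and z1B_4 and z1B_6 in the outer edge of a domain of 180 kb. Neighbouring copies of one family share their surroundings and are not independent observations.

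Transcription factors of development were found in both parts. MADS-box factors, many of which specify flower organs, had 5 of 32 members in domains (15.6%, beside 9.09% of all genes). These were zmm6 (170 kb) and MADS35 (120 kb) in cores and MADS47 between cores of a 1610 kb domain. MADS37 (120 kb) and MADS76 (160 kb) were in domains without a core. Homeobox factors had 7 of 44 (15.9%). Both counts are small and carry no test. The epidermal gene ocl4 (870 kb), WOX3A and ZHD13 (660 kb) were in cores, and WOX3B, HB82 and HB21 were in outer edges. WOX3A and WOX3B, duplicate genes of leaf margin founder cells, thus both lay in late S domains, of 1920 kb on chromosome 2 and 300 kb on chromosome 4. MYB, bHLH, bZIP, WRKY, NAC and ERF factors had 12 of 221 in cores, the first by position being bZIP45, NAC76 and Myb56, and 7 in mixed sequence, the first being MYB100, NAC75 and WRKY104. Their total of 19, or 8.60%, was close to the 9.09% of all genes.

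Beside the 9.09% of all genes, expansin and peroxidase genes had 17.4% of 23 in domains and auxin genes 10% of 50, counts of 4 and 5 genes without a test. Expansins, which loosen cell walls, supplied all 4 of the first list: expB7 and the pollen beta-expansin EXPB1 in cores of 300 kb and 480 kb domains, expB6 in an edge and expB4 in a domain without a core. The auxin genes were ARF33 in a core, Yucca10 between cores, ARF28 and AUX36 in edges and AUX1 in a domain of 360 kb without a core. Of 15 cytochrome P450 genes CYP734A7 alone was in a domain, between cores of a 600 kb domain. Of 31 aquaporins NIP1-1 and NIP2-3 were in domains. Of 12 anthocyanin genes, 1 of the 2 entries named a2, the one on chromosome 9, lay in an edge. The name is shared as a synonym, and which of the 2 entries is the anthocyanin gene was not determined.

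Of 37 classified classical maize genes 4 were in domains (10.8%, close to the 9.09% of all genes), and 3 of these domains had no core. The branching repressor tb1 (teosinte branched1), the endosperm cell wall invertase mn1 and the Polycomb gene fie1 were each the only protein-coding gene of a short MSLS domain, of 70 kb, 80 kb and 110 kb. The inflorescence branching gene ra1 (ramosa1) was in a core, in a domain of 420 kb with 2 cores.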

How the data were processed

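EdU-labelled DNA of late, mid and early S nuclei and G1 DNA was sequenced as 150 bp paired-end reads. Trimmomatic 0.39, Bowtie2 2.5.1 and SAMtools 1.9 are listed, per the submitters' processing notes. How classes were called, with what thresholds, from pooled or single replicates and on which build, and how multiply mapping reads were treated, is not given here. The deposited classes and coordinates, in other words labels without a signal, stand on a 10 kb grid, per the file headers.

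Segments with LS in the class were joined where they touched. The fit of RefSeq gene positions to these coordinates was checked by the correlation of gene counts with domain windows, which was lowest within 10 kb of no offset on 10 of 10 chromosomes. No gene coordinate is printed. Lists were matched to symbols and synonyms. Members and lists were chosen with earlier results of these data known. Named were all list members in domains where these were 10 or fewer, otherwise the first 3 in cores and in mixed sequence, named genes of the 10 longest domains, and the 5 longest domains, stretches and gene-richest domains. Other places were chosen after their values were seen. Of the list members in domains, 1 is not reported here.

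Each difference had an exact two-sided permutation test that flips signs over the 10 chromosomes, adjusted by Benjamini-Hochberg over 6 tests. The joining and the test were checked on simulated data. Python 3.11.15, numpy 2.4.6, pandas 2.3.3 and matplotlib 3.10.9 were used.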

Additional observations from a re-analysis of the deposited data

How the results depend on the processing

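All 6 tested differences kept their direction and passed at an adjusted p under 0.05 in every one of 71 alternative fits. Most of these fits left out 1 chromosome, and others took, for gene types and gene length, the middle 60% of chromosomes alone. Apart from domains with minus without a core, each difference had the same sign on 10 of 10 chromosomes. For those, the test without 1 chromosome must return its smallest p. Such passes were fixed in advance and add no support. By the exact sign-flip permutation test, core minus edge ranged from -3.80 to -2.45 genes per Mb, edge minus flank from -8.08 to -5.01 and domains with minus without a core from -1.62 to -1.20, the last with adjusted p up to 0.0273. Edge minus flank was smallest, -5.01, with a flank of 50 kb. With LS segments alone in place of all late classes the mean share over chromosomes was 20.8% and the median length 120 kb, with 100% core by construction. With only domains that hold a core there were 1375, with a median of 240 kb and a core share of 75.2%. With only domains of 50 kb or more the median was 180 kb. Bridging up to 20 kb of unclassified sequence gave 2075 domains. These settings redefine, select or join the domains by construction. The 10 kb grid sets the shortest length that can be seen, and depth is unknown. No paired analysis was possible because the file has no library columns.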

Other observations

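Classes that join early and late S were found in 9 segments, 180 kb in all, in 8 of the domains. On chromosome 10 a pair of ESLS segments of 10 kb and 30 kb stood on either side of a single ES window, from 47740001 to 47790000, at the end of the fourth longest domain. On chromosome 4 ESLS segments of 10 kb and 30 kb lay between LS and an early class, starting at 63440001 and 88170001. On chromosome 9 an ESLS segment of 40 kb and an ESMSLS segment of 10 kb, from 7210001 to 7260000, led from LS to ESMS. On chromosome 7 an ESLS segment of 20 kb at 183150001 was enclosed by ES, with no LS beside it. Short noncoding genes were also sparse in domains: 57 of 864 classified transfer RNA genes (6.60%), 17 of 238 small nuclear RNA genes (7.14%), 80 of 632 small nucleolar RNA genes (12.7%) and 17 of 163 microRNA genes (10.4%) lay there, beside 9.09% of protein-coding genes and 29.99% of classified sequence.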
